A study of Mus musculus with 18 samples.

Results

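Transcript levels of 8 genes of the bone morphogenetic protein (BMP) pathway were followed in mouse stem cell cultures. The genes are the ligands Bmp2 and Bmp4, the secreted antagonist Grem1, the inhibitory Smads Smad6 and Smad7, and the inhibitors of DNA binding Id1, Id2 and Id3. Signalling activity itself was not measured. A member was taken as the probe set to which the platform annotation gives that symbol alone, and each of the 8 symbols had exactly 1 such probe set, so that 8 of the 19938 genes measured under a symbol of their own are described. The probe sets were 10476395 for Bmp2, 10419261 for Bmp4, 10485948 for Grem1, 10594418 for Smad6, 10456745 for Smad7, 10477169 for Id1, 10399691 for Id2 and 10509163 for Id3.

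Total RNA of 18 samples was hybridised to Affymetrix Mouse Gene 1.0 ST arrays, 3 biological replicates in each of 6 groups. The groups were differentiated adult 129SV cells, differentiated embryonic stem (ES) 129SV cells, undifferentiated adult cells of the Stra8-EGFP/Rosa26 background (adult Stra8), undifferentiated ES cells of that background (ES Stra8), undifferentiated adult 129SV cells and undifferentiated ES 129SV cells. The series title names the adult cells multipotent adult germline stem cells, and its question is how alike they and ES cells are. The sources used here do not give how the cells were differentiated or whether they grew on feeder cells. How many lines or animals stood behind the 3 replicates is not given either. The p-values therefore weigh differences of means against the spread between samples labelled as biological replicates. Whether that spread covers lines or animals is not known. No differentiated group of the Stra8 background was among the 18 arrays, and the background cannot be told apart from the derivation of the lines that carry it.

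As background, BMP ligands bind pairs of type I and type II serine-threonine kinase receptors, which phosphorylate Smad1, Smad5 and Smad9. These join Smad4 and enter the nucleus, where the Id genes are among their best known direct targets. Smad6 and Smad7 are induced by the pathway and block it at the receptor, while Grem1 binds BMP ligands outside the cell and keeps them from their receptors. In mouse ES cells cultured with leukaemia inhibitory factor, BMP4 is known to sustain self-renewal through Id genes, and BMP signals also drive mesoderm, primitive endoderm and trophoblast programmes. Id proteins carry a helix-loop-helix domain but no basic region, so they pair with E proteins and hold them off DNA.

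RefSeq windows of mouse assembly GRCm38.p6, from 250 bases before to 50 after a gene's start, matched 5 of the 8 members, namely Bmp4, Grem1, Id2, Id3 and Smad6. They were searched on both strands for GGCGCC, a GC-rich element that BMP Smads bind, and for GTCT, the core Smad-binding element, which reads AGAC on the opposite strand. These motifs cannot overlap one another. GGCGCC occurred in 11.9% of all 32851 windows, and GTCT or AGAC in 88.0%, so GTCT or AGAC is common in any window of this length. The 250 bases before the start are shown for Id2, Id3 and Smad6, which are targets or feedback inhibitors that fell in ES Stra8 cells, and for Grem1, whose level varied most, each 5′ to 3′ on the gene's strand with matches in capitals.
Id2 (chr12:25096093-25096342, minus strand): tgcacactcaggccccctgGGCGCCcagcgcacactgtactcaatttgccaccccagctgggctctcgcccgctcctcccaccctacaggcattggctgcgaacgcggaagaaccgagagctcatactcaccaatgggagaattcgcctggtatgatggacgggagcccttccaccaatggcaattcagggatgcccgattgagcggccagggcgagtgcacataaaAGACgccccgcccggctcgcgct
Id3 (chr4:136143572-136143821, plus strand): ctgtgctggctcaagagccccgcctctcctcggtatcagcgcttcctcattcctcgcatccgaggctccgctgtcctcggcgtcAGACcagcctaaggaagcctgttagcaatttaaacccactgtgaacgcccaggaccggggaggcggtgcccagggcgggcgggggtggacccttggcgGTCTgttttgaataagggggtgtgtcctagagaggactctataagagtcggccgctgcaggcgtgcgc
Smad6 (chr9:64022060-64022309, minus strand): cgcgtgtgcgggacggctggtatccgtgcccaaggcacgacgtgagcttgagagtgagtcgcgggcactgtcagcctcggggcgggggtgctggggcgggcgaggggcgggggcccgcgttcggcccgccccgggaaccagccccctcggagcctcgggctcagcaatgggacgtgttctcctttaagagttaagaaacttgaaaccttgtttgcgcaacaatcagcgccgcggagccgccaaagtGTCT
Grem1 (chr2:113758649-113758898, minus strand): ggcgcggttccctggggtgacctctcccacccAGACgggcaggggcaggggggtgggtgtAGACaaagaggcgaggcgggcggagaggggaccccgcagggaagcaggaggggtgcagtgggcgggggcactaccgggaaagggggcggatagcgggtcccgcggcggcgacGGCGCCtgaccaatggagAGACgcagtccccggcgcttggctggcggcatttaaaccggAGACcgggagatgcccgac
The Id2 window held 1 GGCGCC, 231 bases before the start, and 1 AGAC. The Id3 and Smad6 windows held no GGCGCC, with 3 and 2 copies of GTCT or AGAC in their full 300 bases. Grem1 had 1 GGCGCC, 78 bases before its start, and 6 copies of GTCT or AGAC, against a median of 2 over all windows. The Bmp4 window, not printed, held 0 GGCGCC and 2 copies of GTCT or AGAC. These matches describe letters in the windows and were not related to binding.

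Values are log2 signals made with RMA, in which a difference of 1 is a 2-fold change, and levels of different genes are not compared because probe sets differ in response. Changes are differences of group means from 1 limma fit to all 18 arrays, given with the standard error (SE), and a gene was called when its adjusted p (Benjamini-Hochberg over 19938 genes) was under 0.05. Replicate 3 of differentiated ES 129SV cells stood apart, with the lowest mean correlation across genes to its own group (r = 0.9915) and the lowest array weight (0.153). Leaving it out changed no call of a member. The Grem1 difference between the differentiated groups changed sign without it and is given both ways. Other changes of members kept their sign and are given with it. The labels were checked on 8 markers of pluripotent cells: all 8 fell with differentiation from either origin, with Pou5f1 at -2.47 in adult and -3.14 in ES cells, while the endoderm factor Gata4 rose by 4.40 in adult and 3.32 in ES cells. Of 10 markers of spermatogonia and germ cells, 3 rose and 3 fell in adult against ES 129SV cells, where 23.0% and 23.1% of all genes did. In adult against ES Stra8 cells 5 of them rose and 1 fell, where 13.2% and 15.1% of all genes did. Without detection calls or background levels, a low signal cannot be called absent.

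Bmp2, which encodes a ligand that patterns mesoderm, heart and bone, was high in differentiated cells. Its signal was 9.97, 10.13 and 10.00 in differentiated adult 129SV cells, and 8.97, 8.89 and 9.10 in differentiated ES 129SV cells. It was 6.05, 5.98 and 6.04 in adult Stra8, 5.63, 5.85 and 5.69 in ES Stra8, 6.14, 5.61 and 6.19 in adult 129SV arrays, and 6.40, 6.61 and 6.40 in ES 129SV cells. No array of a differentiated culture overlapped any of an undifferentiated one, and the differentiated origins did not overlap each other either. Among undifferentiated groups, adult 129SV arrays overlapped those of both Stra8 groups, and ES 129SV arrays lay above all of these. Bmp2 rose with differentiation by 4.05 ± 0.12 in adult cells (adjusted p = 4.38e-14), a 16.6-fold change, and by 2.52 ± 0.12 in ES cells (1.27e-11), a 5.72-fold change. The response was larger in adult than in ES cells by 1.53 ± 0.17 (1.63e-06), and the level in differentiated adult cells exceeded that in differentiated ES cells by 1.04 ± 0.12 (4.16e-06). The undifferentiated 129SV means, 5.98 in adult and 6.47 in ES cells, lay near 6, the bound used below for dim genes. How far dim signal limits the sizes of these responses is not known.

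Bmp4, the ligand linked to ES cell self-renewal, changed with differentiation in the direction opposite to Bmp2. Signals were 8.74, 8.51 and 8.40 in differentiated adult 129SV and 7.77, 7.81 and 7.87 in differentiated ES 129SV cells. Undifferentiated Stra8 cells read 8.14, 7.96 and 7.89 when adult and 8.16, 8.06 and 7.96 when ES-derived, and undifferentiated 129SV cells 9.46, 9.40 and 9.39 when adult and 9.39, 9.08 and 9.09 when ES-derived. The undifferentiated 129SV groups were highest and overlapped by 1 ES array, and the Stra8 groups overlapped each other while lying below every undifferentiated 129SV array. Bmp4 fell with differentiation by 1.37 in ES cells (SE 0.10, adjusted p = 1.90e-09) and by 0.87 in adult cells (SE 0.10, 5.92e-07). In the Stra8 background it was lower than in 129SV, by a change of -1.42 ± 0.10 in adult cells (3.50e-09) and -1.13 ± 0.10 in ES cells (5.73e-08). The decrease with differentiation was smaller in adult cells, with a difference in response of 0.51 ± 0.14 (0.00609), and differentiated adult cells stood 0.73 ± 0.10 above differentiated ES cells (1.79e-05). Adult minus ES was 0.23 in 129SV (95% confidence interval 0.02 to 0.43, adjusted p = 0.0661) and -0.06 in Stra8 (-0.27 to 0.14, 0.726), and neither was called. The 129SV value was called without ES 129SV replicate 1 (0.33, adjusted p = 0.0110), with quantile normalisation (0.34, 0.00598) and with a trended robust variance (0.0380).

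Grem1, the antagonist of BMP2 and BMP4, was the member whose level varied most, with group means spanning 5.01. It read 6.89, 7.16 and 7.02 in differentiated adult 129SV cells, and 6.76, 7.10 and 7.43 in differentiated ES 129SV cells. The signal was 12.05, 12.01 and 11.97 in adult Stra8, 11.22, 11.16 and 11.28 in ES Stra8, 10.43, 10.48 and 10.52 in adult 129SV arrays, and 12.05, 12.03 and 12.01 in ES 129SV cells. All undifferentiated arrays lay above all differentiated ones, adult Stra8 and ES 129SV arrays overlapped at the top, and the other undifferentiated groups stood apart from each other. Differentiation lowered Grem1 by 4.94 in ES cells (SE 0.11, adjusted p = 1.66e-15), a 30.6-fold change, and by 3.45 in adult cells (SE 0.11, 1.68e-13), a 10.96-fold change. The responses differed by 1.48 ± 0.16 (adult minus ES, 1.47e-06), while the differentiated groups themselves differed by -0.07 (95% confidence interval -0.31 to 0.17, 0.679). Without replicate 3 of differentiated ES cells that last difference was 0.10 (0.471), and with array weights 0.25 (0.0242). The weighted value leans on replicate 1 of differentiated ES cells, which had a weight of 5.09 against 0.493 and 0.153 for replicates 2 and 3. Its Grem1 signal, 6.76, was the lowest of that group.

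The effect of origin on Grem1 had opposite signs in the backgrounds. The adult minus ES change was -1.55 ± 0.11 in 129SV (adjusted p = 9.79e-09) and 0.79 ± 0.11 in Stra8 (5.89e-05). The difference between these effects was 2.34 ± 0.16 (4.66e-09). Between backgrounds, adult Stra8 cells exceeded adult 129SV cells by 1.53 ± 0.11 (9.84e-09), whereas ES Stra8 cells were lower than ES 129SV cells, with a change of -0.81 ± 0.11 (1.86e-05).

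Fibroblast markers moved in several of the same comparisons, and Grem1 is a gene that fibroblasts are known to express. Of 21 measured markers, 18 fell and 1 rose in adult against ES 129SV cells, 21 of 21 rose in adult against ES Stra8 cells, and 20 fell and 0 rose in ES Stra8 against ES 129SV cells. With differentiation 16 fell and 5 rose in adult cells, and 19 fell and 2 rose in ES cells. On the log2 scale their summed signal ran between 14.80 and 14.86 in differentiated adult 129SV, 13.94 and 14.00 in differentiated ES 129SV arrays, and 15.33 and 15.37 in adult Stra8 arrays. It ran between 14.55 and 14.60 in ES Stra8, 14.92 and 14.95 in adult 129SV arrays, and 15.87 and 15.89 in ES 129SV arrays. Both Grem1 and the sum were highest in ES 129SV and adult Stra8 cells. Adult 129SV and differentiated adult cells stood above ES Stra8 cells for the sum and below them for Grem1. The sum of linear signals is weighted towards the brightest markers, and single markers differed in this order. In ES Stra8, adult 129SV and differentiated adult cells in turn, Mmp3 means were 11.50, 10.18 and 5.59, and Twist2 means 9.43, 9.27 and 7.38. In the same groups Col1a1 means were 11.59, 12.63 and 12.39, and Acta2 means 10.69, 11.83 and 12.03. Among the markers Dcn fell by 2.52 in adult against ES 129SV cells, and Prrx1 fell by 5.29 with ES differentiation, while Pdgfra, which primitive endoderm also expresses, rose by 1.18 there. The lowest group mean among the markers of the list was 4.94, that of Lum in differentiated adult cells. Without background levels it cannot be called present or absent. The part of such cells in the Grem1 differences was not tested, and in bulk RNA fewer cells of a type and less RNA per cell cannot be told apart.

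**Figure D1:**
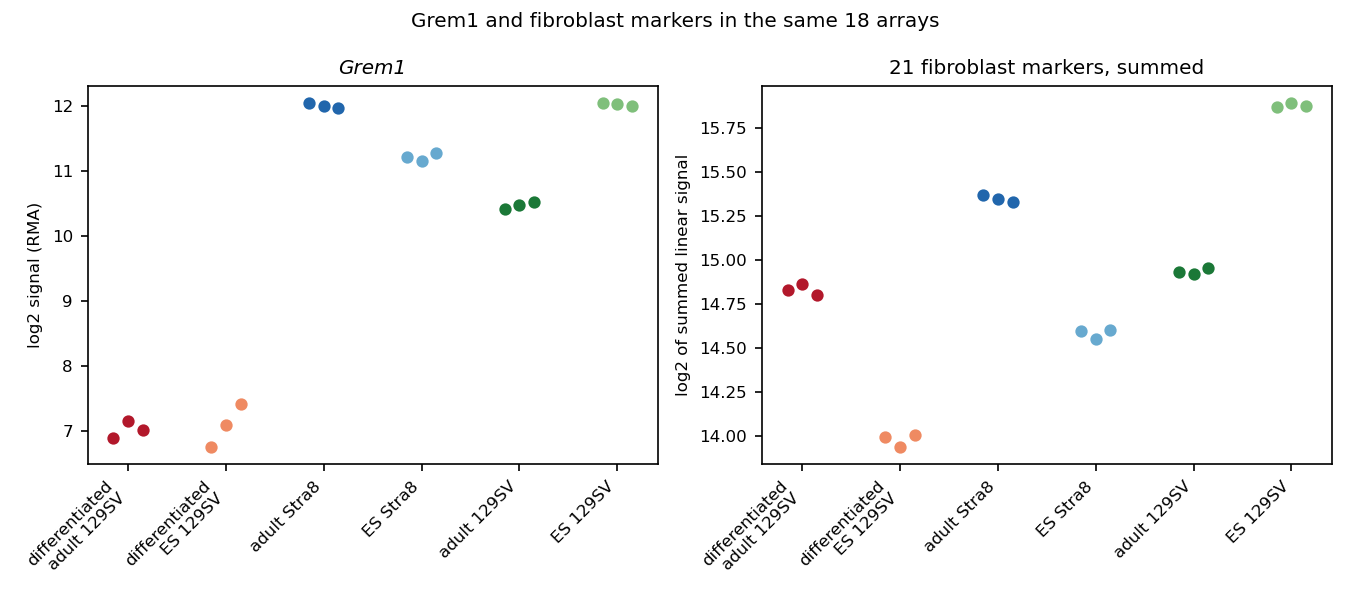
Log2 signal of Grem1 (left) and the log2 of the summed linear signal of 21 fibroblast markers (right) in each of the 18 arrays, by group, 3 points per group. Grem1 lies between 10.43 and 12.05 in undifferentiated and between 6.76 and 7.43 in differentiated arrays. The marker sum of differentiated adult arrays (14.80 to 14.86) lies above that of ES Stra8 arrays (14.55 to 14.60). This sum is weighted towards the brightest markers.

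Smad6, which preferentially blocks BMP receptors and Smad1, was highest in differentiated ES cells. The 3 arrays gave 7.85, 7.83 and 7.80 in differentiated adult 129SV, and 8.20, 8.19 and 8.36 in differentiated ES 129SV cells. Undifferentiated cells gave 7.30, 7.40 and 7.41 in adult Stra8, 6.91, 6.79 and 7.21 in ES Stra8, 7.56, 7.58 and 7.67 in adult 129SV arrays, and 7.52, 7.72 and 7.60 in ES 129SV. Only the undifferentiated 129SV groups overlapped among neighbours in this order. Smad6 rose with differentiation by 0.64 ± 0.09 in ES cells (adjusted p = 8.41e-06) and by 0.22 ± 0.09 in adult cells (0.0416), a difference in response of -0.42 ± 0.13 (0.0123). The rise in adult cells passed the threshold narrowly and was lost under 7 alternatives, among them quantile normalisation (0.22, adjusted p = 0.0530), array weights (0.0838) and the omission of adult 129SV replicate 1 (0.20, 0.111). ES Stra8 cells had less than ES 129SV cells, with a change of -0.64 ± 0.09 (1.55e-05). Adult Stra8 cells had 0.40 ± 0.09 more than ES Stra8 cells (0.00258), against -0.01 ± 0.09 between the 129SV origins (0.958).

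Smad7, which blocks both BMP and TGF-beta receptors, followed the opposite course on differentiation. Its values were 9.63, 9.80 and 9.75 in differentiated adult 129SV, and 9.67, 9.67 and 9.76 in differentiated ES 129SV cells. Without differentiation it read 10.48, 10.34 and 10.35 for adult Stra8, 10.40, 10.39 and 10.43 for ES Stra8, 10.34, 10.33 and 10.39 for adult 129SV, and 11.03, 11.07 and 11.09 for ES 129SV arrays. ES 129SV arrays stood alone at the top, adult Stra8 arrays overlapped those of both ES Stra8 and adult 129SV, and the differentiated groups overlapped at the bottom. Differentiation lowered Smad7 by 1.36 in ES cells (SE 0.06, adjusted p = 2.04e-12) and by 0.63 in adult cells (SE 0.06, 4.12e-08), with a difference in response of 0.74 ± 0.08 (1.24e-06). Undifferentiated adult 129SV cells were below ES 129SV cells by a change of -0.71 ± 0.06 (2.21e-08), and ES Stra8 cells below ES 129SV cells by -0.65 ± 0.06 (5.90e-08). For adult minus ES Stra8 the change was -0.02 (95% confidence interval -0.14 to 0.10, adjusted p = 0.892). Smad6 and Smad7, both known as feedback inhibitors, thus had opposite signs with ES differentiation and the same sign between ES backgrounds.

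Id1, a target that BMP Smads induce directly, gave signals of 8.47, 8.63 and 8.59 in differentiated adult 129SV cells and 9.78, 9.65 and 9.81 in differentiated ES 129SV cells. In undifferentiated cells it gave 8.38, 8.27 and 8.28 in adult Stra8, 8.29, 8.01 and 8.20 in ES Stra8, 9.10, 9.07 and 9.26 in adult 129SV arrays, and 8.90, 8.87 and 8.90 in ES 129SV. Only the Stra8 groups overlapped, at the bottom, and differentiated ES arrays were above all others. Differentiation changed Id1 in opposite directions, by -0.58 ± 0.07 in adult cells (adjusted p = 3.76e-06) and by 0.86 ± 0.07 in ES cells (3.12e-08). The difference in response, -1.44 ± 0.11 (1.55e-08), was the largest negative one among the members, and differentiated adult minus differentiated ES cells was -1.18 ± 0.07 (6.39e-09). Stra8 cells had less Id1 than 129SV cells in both origins, by -0.83 ± 0.07 in adult (8.98e-08) and -0.72 ± 0.07 in ES cells (6.04e-07). Adult 129SV cells exceeded ES 129SV cells by 0.25 ± 0.07 (0.0103), a call lost without adult 129SV replicate 3 (0.20, 0.0593).

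Id2, known in lymphoid and mammary development as well as a BMP target, had the values 8.46, 8.68 and 8.49 in differentiated adult 129SV and 9.52, 9.55 and 9.34 in differentiated ES 129SV cells. Values of 8.46, 8.46 and 8.33 were found in adult Stra8, 8.19, 8.19 and 8.16 in ES Stra8, 8.38, 8.27 and 8.61 in adult 129SV arrays, and 8.78, 8.76 and 8.69 in ES 129SV cells. Differentiated ES arrays again lay above all others, ES Stra8 arrays below all others, and both undifferentiated adult groups overlapped each other. Adult 129SV arrays also overlapped differentiated adult arrays. Id2 rose by 0.73 ± 0.08 with ES differentiation (adjusted p = 9.41e-07), while the change in adult cells was 0.13 ± 0.08 (0.197; 0.22 and 0.0250 without adult 129SV replicate 3), and the responses differed by -0.60 ± 0.12 (5.91e-04). The call of 0.24 ± 0.08 for adult against ES Stra8 cells (0.0430) was lost with arrays centred (0.21, 0.0943) and when any of 5 of the 6 arrays was left out. In 129SV cells the sign was the other way, -0.33 ± 0.08 (0.00410).

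Id3, like Id1 a direct target of BMP Smads, gave 7.76, 7.92 and 7.65 in differentiated adult 129SV and 8.21, 8.17 and 8.09 in differentiated ES 129SV cells. It gave 7.94, 7.67 and 7.69 in adult Stra8, 7.23, 7.31 and 7.43 in ES Stra8, 8.20, 8.49 and 8.48 in adult 129SV arrays, and 8.32, 8.33 and 8.50 in ES 129SV cells. The ES Stra8 arrays were lowest and did not overlap any other group. The undifferentiated 129SV groups overlapped each other at the top, and the lowest adult 129SV array also overlapped the differentiated ES arrays. Id3 fell with adult differentiation by 0.61 (SE 0.10, adjusted p = 3.38e-05). For ES differentiation the change was -0.23 ± 0.10 (0.0570), which passed in 3 alternatives, namely with dim genes left out (0.0433), with a trended robust variance (0.0395) and in a fit to those 6 arrays alone (0.0450). The difference in response was -0.39 ± 0.14 (0.0308), and it missed the threshold when any of 7 of the 12 arrays was left out (adjusted p up to 0.0770). Between ES backgrounds Id3 changed by -1.06 ± 0.10 (1.31e-07), the second largest decrease of the members there.

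**Figure D2:**
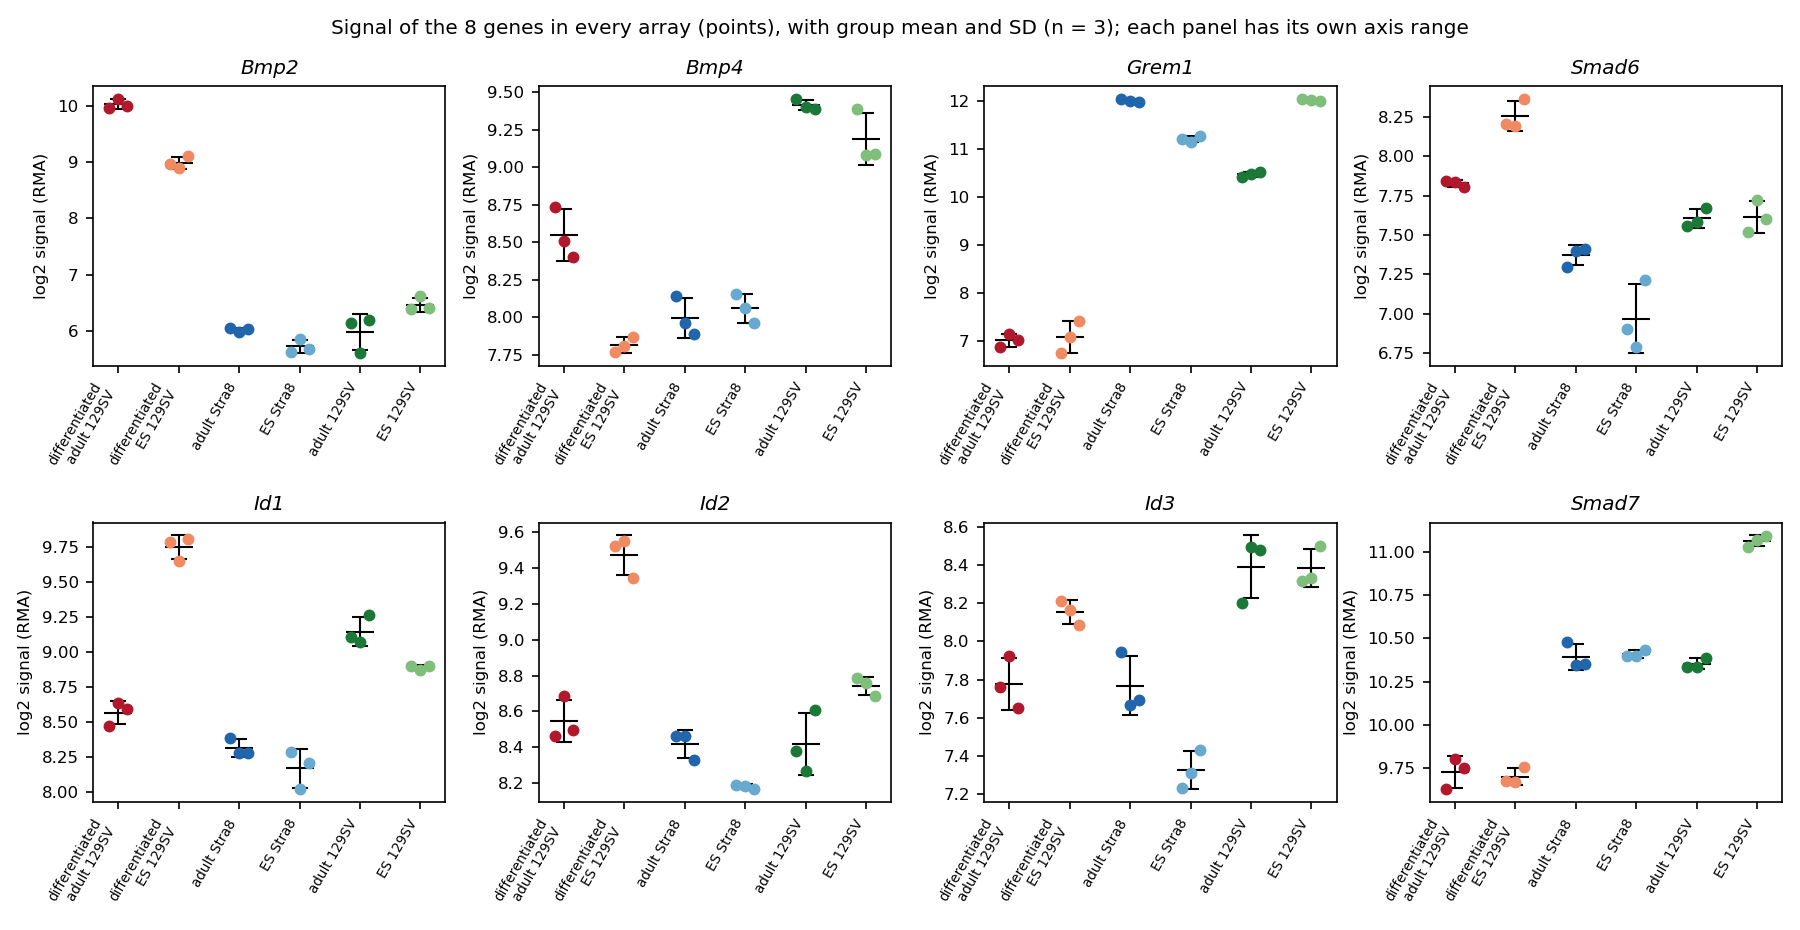
Log2 signal of the 8 genes in every array (points) with group mean and SD (bars, n = 3), by group; each panel has its own axis range. Bmp2 lies at 8.89 or above in differentiated arrays and at 6.61 or below in undifferentiated ones, Grem1 and Smad7 lie the other way, and Id1 and Id2 peak in differentiated ES cells.

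In ES Stra8 cells all members were lower than in ES 129SV cells. Of the 8 members 8 were called lower and 0 higher, where 20.0% of all genes tested were called lower and 21.3% higher. Bmp2 changed by -0.75 ± 0.12 (adjusted p = 6.97e-05) and Id2 by -0.56 ± 0.08 (3.22e-05). In the undifferentiated groups Bmp2 means lay between 5.72 and 6.47, near the level of 6 used below as the bound for dim genes. All changes lay between -1.13 (Bmp4) and -0.56 (Id2), with a median of -0.73 against -0.01 over all genes, and all 8 calls stood in each of the 14 alternatives tried, which included leaving out each of the 6 arrays. The fibroblast list was lower in the same comparison (20 of 21, median -1.15), the endoderm list fell in 9 of 17 with 0 higher (median -0.28), and pluripotency markers rose in 4 and fell in 2 of 8. Their part in the members' decrease was not tested.

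Between adult Stra8 and adult 129SV cells, 1 member was called higher (Grem1) and 4 lower (Bmp4, Id1, Id3 and Smad6), where 24.2% and 26.8% of genes were called higher and lower. Id3 changed by -0.62 ± 0.10 (adjusted p = 3.89e-05). Smad6 was the weakest of these at -0.24 ± 0.09 (adjusted p = 0.0367), a call that was lost under 7 alternatives, with adjusted p between 0.0502 and 0.127 there. Bmp2 (0.04), Id2 (0.00) and Smad7 (0.04) were not called, with 95% confidence intervals of -0.21 to 0.29, -0.18 to 0.18 and -0.08 to 0.16. The fibroblast markers rose in 11 and fell in 5 of 21 in this comparison.

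Between adult and ES cells of the 129SV background, 1 member was called higher (Id1) and 4 lower (Bmp2, Grem1, Id2 and Smad7), against 23.0% and 23.1% of all genes. In Stra8 cells 4 were higher (Grem1, Id2, Id3 and Smad6) and 0 lower, against 13.2% and 15.1%. Beside these, pluripotency markers fell in 6 and rose in 0 of 8 and endoderm markers rose in 11 and fell in 0 of 17 in Stra8 cells. In 129SV cells pluripotency markers fell in 2 and rose in 0 of 8, and endoderm markers fell in 9 and rose in 0 of 17. Trophectoderm markers rose in 5 and fell in 2 of 9 in either background. The part of these markers was not tested. Bmp2 fell by 0.49 in 129SV (SE 0.12, adjusted p = 0.00280), a change of -0.30 without adult 129SV replicate 2, and its change in Stra8 was 0.30 ± 0.12 (0.0763), which was called with array weights (0.00582) or in a fit to the compared arrays alone (0.00995). Id3 rose by 0.44 ± 0.10 in Stra8 (0.00230), against a change of 0.01 ± 0.10 in 129SV (0.953). The difference between these effects of origin, Stra8 minus 129SV, was called positive for 6 members and negative for 0, where 21.3% and 21.8% of genes were. In size it was 2.34 for Grem1, 0.79 ± 0.17 for Bmp2 (0.00104), 0.69 ± 0.08 for Smad7 (1.83e-06), 0.56 ± 0.12 for Id2 (8.75e-04), 0.43 ± 0.14 for Id3 (0.0165) and 0.41 ± 0.13 for Smad6 (0.0147). The Id3 value missed the threshold with quantile normalisation (0.31, 0.0711) and without adult Stra8 replicate 1 (0.35, 0.0515). For Id1 it was -0.11 (95% confidence interval -0.34 to 0.11), which was not called. For Bmp4 it was -0.29 (adjusted p = 0.102), which was called with quantile normalisation (-0.41, 0.0166) and without ES 129SV replicate 1 (-0.39, 0.0219) or adult Stra8 replicate 1 (-0.36, 0.0477). Fibroblast markers were positive in 20 of 21 and negative in 1 in the same test (median 1.72). Endoderm markers were positive in 10 and negative in 0 of 17 there (median 0.84). Pluripotency markers were positive in 0 and negative in 3 of 8, and trophectoderm markers positive in 2 and negative in 5 of 9. The part of these lists was not tested.

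With differentiation, 4 members were called higher (Bmp2, Id1, Id2 and Smad6) and 3 lower (Bmp4, Grem1 and Smad7) in ES cells, where 27.9% and 27.3% of genes were. In adult cells 2 were higher (Bmp2 and Smad6) and 5 lower (Bmp4, Grem1, Id1, Id3 and Smad7), against 27.5% and 32.2%. Beside these, endoderm markers rose in 16 and fell in 0 of 17 with ES differentiation (median 1.71). With adult differentiation they rose in 12 and fell in 1 (median 1.97). The adult minus ES response was called for all 8 members. It was positive for Bmp2, Bmp4, Grem1 and Smad7 and negative for Id1, Id2, Id3 and Smad6. Of all genes 24.2% and 21.5% were called positive and negative. All 8 calls stood without replicate 3 of differentiated ES cells. In the same test fibroblast markers were positive in 20 and negative in 1 of 21, pluripotency markers positive in 7 and negative in 0 of 8, and trophectoderm markers positive in 2 and negative in 7 of 9. The comparisons of differentiated with undifferentiated ES cells and of ES Stra8 with ES 129SV cells share the ES 129SV arrays. The difference in response and the difference between effects of origin both subtract the adult minus ES 129SV change, so they are not independent. In differentiated cells the 3 Id genes and Smad6 were lower in adult than in ES cultures, with Id2 at -0.92 ± 0.08 (adjusted p = 3.30e-07), Smad6 at -0.43 ± 0.09 (0.00133) and Id3 at -0.38 ± 0.10 (0.00642). Bmp2 and Bmp4 were higher there, so that 2 members rose and 4 fell, where 19.4% and 12.8% of genes did. In the same comparison pluripotency markers rose in 7 and fell in 0 of 8, endoderm markers rose in 7 and fell in 6 of 17, fibroblast markers rose in 16 and fell in 2 of 21, and trophectoderm markers fell in 5 and rose in 2 of 9, with Krt7 at -1.63. What part such differences in make-up had was not tested.

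**Figure D3:**
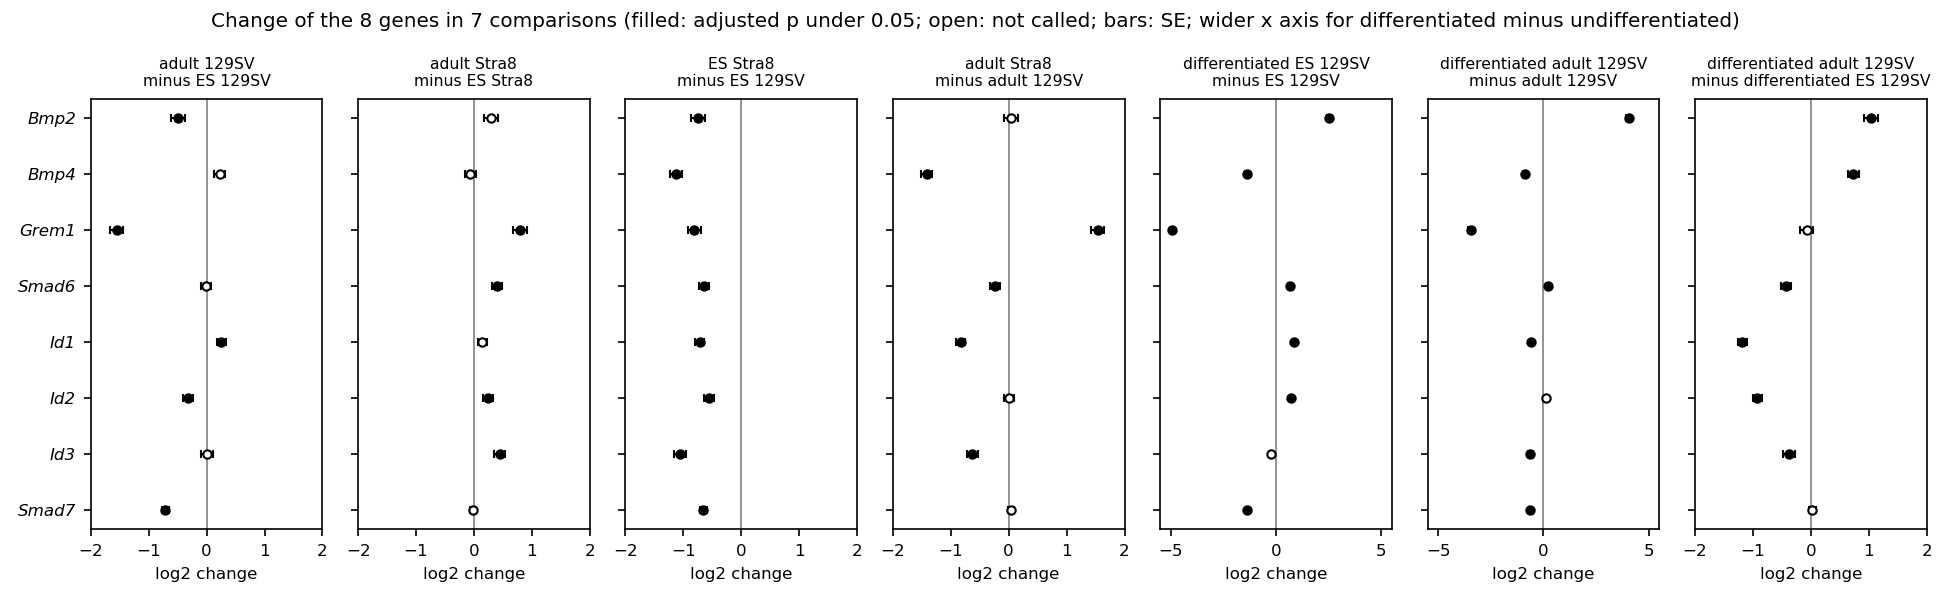
Log2 change of the 8 genes in 7 comparisons, with SE bars that are often shorter than the symbol; filled symbols have an adjusted p under 0.05 and open ones do not. In ES Stra8 minus ES 129SV all 8 symbols are filled and left of 0, from -1.13 to -0.56, and the x axis is wider in the panels of differentiated minus undifferentiated cells.

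The other genes of the pathway were read from 6 lists of 66 measured genes. In ES Stra8 against ES 129SV cells 25 fell and 9 rose, with a median of -0.15, where 20.0% of all genes fell and 21.3% rose. Bmpr1b, a type I receptor, fell by 1.26 (SE 0.11, adjusted p = 5.19e-08), and of the 10 receptors and co-receptors 6 fell and 1 rose. Among 17 antagonists and modulators 8 fell and 1 rose, led by the follistatin-like Fstl3 (-1.74 ± 0.06, 1.24e-12), Fstl1 (-1.39 ± 0.06) and the chordin-cleaving proteases Tll1 (-1.36 ± 0.08) and Bmp1 (-1.18 ± 0.05). Of 13 other BMP targets 3 rose and 1 fell, and Id4, the remaining Id family member, rose by 1.08 ± 0.06 (1.30e-10). Its signal was 9.30, 9.36 and 9.38 in ES Stra8 cells, against 8.29, 8.23 and 8.29 in ES 129SV cells, without overlap. Of TGF-beta and activin targets, the Nodal antagonists Lefty2 (2.56 ± 0.07) and Lefty1 (1.90 ± 0.09) rose, and the matrix protein Tgfbi (-1.38 ± 0.07) and the adaptor Tgfb1i1 (-1.01 ± 0.06) fell.

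Genes that receive and relay BMP signals changed with differentiation in both directions. Of 10 receptors and co-receptors 6 rose and 4 fell in adult cells, where 27.5% of all genes rose and 32.2% fell, and 5 rose and 4 fell in ES cells, where 27.9% rose and 27.3% fell. The type I receptor Bmpr1a had signals of 11.06, 11.24 and 10.89 in differentiated ES cells, against 10.09, 10.08 and 9.98 in ES 129SV cells, and rose by 1.01 ± 0.07 (adjusted p = 2.37e-09). In adult cells Bmpr1a rose by 1.29 ± 0.07 (1.07e-10), the type II receptor Bmpr2 by 1.23 ± 0.06 and the type I receptor Acvr1 by 1.68 ± 0.06 (1.78e-13), whereas Bmpr1b fell by 1.16 in adult and by 1.86 in ES cells. Of 9 Smads and regulators 7 rose in adult and 6 in ES cells, with 2 and 1 down, and Smad1, which receptors phosphorylate, rose by 1.18 ± 0.07 in adult cells. Among further ligands Bmp6 rose by 1.51 ± 0.08 in adult and 1.28 ± 0.08 in ES cells. Bmp7 rose by 1.51 ± 0.10 in ES cells (1.03e-09), and its response was smaller in adult cells by a difference of -1.37 ± 0.14 (8.72e-07).

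Among 17 antagonists and modulators other than Grem1, 8 rose and 2 fell with differentiation in adult cells, and 4 rose and 6 fell in ES cells, where 27.5% and 32.2% of all genes rose and fell in adult cells and 27.9% and 27.3% in ES cells. The adult minus ES response was positive for 9 of them and negative for 2, where 24.2% and 21.5% of all genes were. Noggin, Nog, had signals of 8.98, 9.39 and 8.93 in differentiated adult cells, against 7.15, 7.23 and 7.04 in adult 129SV cells, and rose by 1.96 ± 0.11 (adjusted p = 6.45e-11). Follistatin, Fst, an activin and BMP binder, rose by 2.11 ± 0.07, and Bmper by 2.32 ± 0.07 (2.95e-14). Their responses exceeded those of ES cells by 1.96 ± 0.09 for Fst and 2.79 ± 0.09 for Bmper. In ES cells Tll1 fell by 3.17 and Fstl3 by 1.59, and Tll1 also fell in adult cells, by 1.60. Nog was also higher in differentiated ES cells, with a mean of 8.16 against 7.16 in ES 129SV cells, without overlap of arrays. Other BMP targets rose in 5 and fell in 2 of 13 in adult cells, and rose in 9 and fell in 3 in ES cells. Those that rose in ES cells included Gata3, which specifies trophoblast (2.94 ± 0.11, 6.34e-13), and the homeobox gene Msx2 (1.69 ± 0.14, 2.34e-08). Prdm1 fell in ES cells, with a change of -2.30 ± 0.06 (4.74e-15). The adult minus ES response was negative for 9 of these 13 targets and positive for 3. It was -1.37 ± 0.16 for Gata3 (2.36e-06) and 1.79 ± 0.08 for Prdm1 (5.23e-11). All 5 measured TGF-beta and activin targets fell with differentiation in both origins, with Nodal at -1.42 ± 0.07 in adult and -2.28 ± 0.07 in ES cells.

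**Figure D4:**
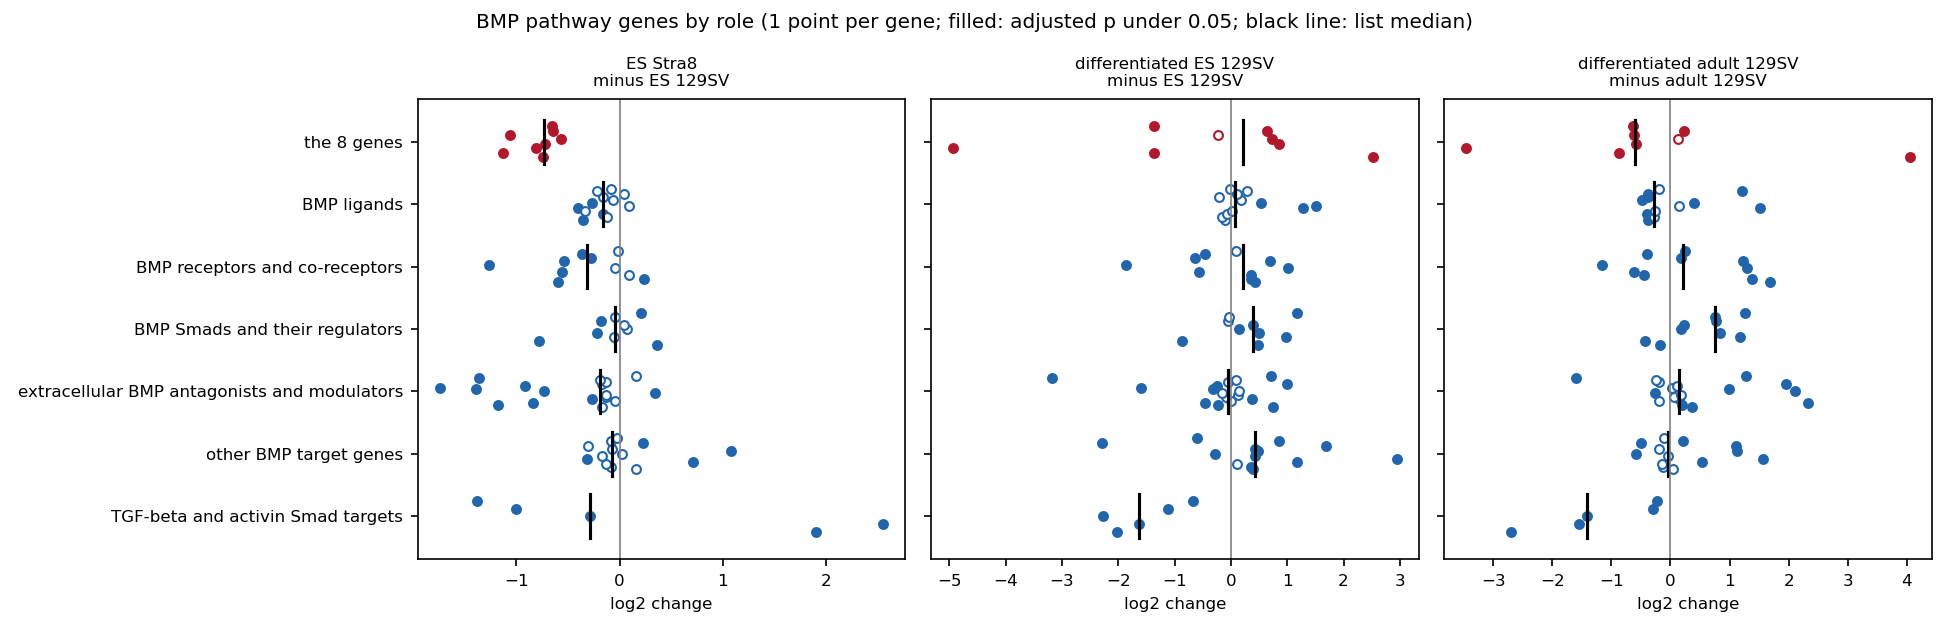
Log2 change of the 8 genes (red) and of 66 other pathway genes (blue) by role in 3 comparisons, 1 point per gene, filled at an adjusted p under 0.05, with a black line at each list's median; each panel has its own x axis. In ES Stra8 minus ES 129SV the median is -0.73 for the 8 genes, and Id4 (1.08) is the rightmost of the other BMP targets.

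Genes whose pattern over the 18 arrays was most like that of a member were named by Pearson's r, as a description over arrays that fall into 6 groups. Grem1 was most like the fibroblast growth factor Fgf7 (r = 0.9963), the chemokine Cxcl5 (0.9960) and the matrix metalloproteinase Mmp3 (0.9954), the last of which is in the fibroblast list. Bmp2 was most like Marchf3 (0.9905), Glipr1 (0.9904) and Capn6 (0.9900), and Smad7 most like the serotonin receptor Htr2a (0.9815), Apobec1 (0.9812) and Clec2d (0.9812). For Bmp4 the leading genes were Cnp (0.957), Gabarapl2 (0.948) and Sox15 (0.945). For Id1 they were Rcan3 (0.9565), Inf2 (0.955) and Epha1 (0.939), for Id2 Gsta3 (0.969), Trim16 (0.968) and Capzb (0.963), and for Id3 Ppp1r18 (0.957), Basp1 (0.951) and Ubtd1 (0.930). Smad6 was most like Bcl9l (0.958), Akt1 (0.952) and Praf2 (0.947). No member was among the 3 genes most like another member.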

How the data were processed

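The submitters' processing notes name RMA and Affymetrix Expression Console, and the values the authors deposited are on the log2 scale. Per the labels' protocols, 300 ng of Trizol-isolated, DNase-treated RNA was labelled with biotin. The values ran from 1.27 to 14.57 and were used as deposited. Of 35556 probe sets, 21789 carried 1 gene symbol in the platform annotation, 1621 carried several and 12146 none. The probe set with the highest mean was kept for the 999 genes with several, which left 19938 genes.

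Group means were fitted to all 18 arrays with lmFit and eBayes of limma 3.58.1 in R 4.3.3 (12 residual and 3.78 prior degrees of freedom), with Benjamini-Hochberg adjustment over 19938 genes in each of 7 comparisons and 2 differences of changes, and a threshold of 0.05. No dim genes were filtered out. The fit was tested on simulated data. The number of arrays, 3 a group, limits the precision. Deviations of same-numbered arrays correlated over 0.1 in every pair only between the differentiated adult and differentiated ES groups (r between 0.144 and 0.442). The numbers were therefore taken to pair samples in that comparison alone, from the data and not from the labels. The reported p-values of that comparison do not use this pairing.

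Alternatives were quantile normalisation, centring of arrays, leaving out genes with no group mean of at least 6, the mean of all probe sets, the replicate number as a block, array weights, a trended robust variance, a fit to the compared groups alone and leaving out each array. Members, lists and tests were chosen with earlier results of these data known. All members are named; other pathway genes are named from those called with a log2 change of at least 1, up to 6 for each list and comparison, and for likeness the 3 genes with the highest r. Some listed genes are not reported here.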

Additional observations from a re-analysis of the deposited data

Results flagged for a closer look

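The effect of origin (adult minus ES) differed between the Stra8 and 129SV backgrounds for 6 genes, by limma's test of the difference itself. Stra8 minus 129SV, it was 2.34 for Grem1 (adjusted p = 4.66e-09), 0.79 for Bmp2 (0.00104), 0.69 for Smad7 (1.83e-06), 0.56 for Id2 (8.75e-04), 0.43 for Id3 (0.0165) and 0.41 for Smad6 (0.0147).

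The response to differentiation differed between adult and ES cells for all 8 genes by the same kind of test. Adult minus ES, it was 1.53 for Bmp2 (adjusted p = 1.63e-06), 1.48 for Grem1 (1.47e-06), 0.74 for Smad7 (1.24e-06) and 0.51 for Bmp4 (0.00609). It was -1.44 for Id1 (1.55e-08), -0.60 for Id2 (5.91e-04), -0.42 for Smad6 (0.0123) and -0.39 for Id3 (0.0308). Id1 changed in opposite directions in the 2 origins. These differences and those between effects of origin both subtract the adult minus ES 129SV change, so they are not independent of each other. For Grem1 and Smad7 that change was -1.55 and -0.71. Differentiated adult minus differentiated ES was -0.07 for Grem1 and 0.03 for Smad7, and was not called for either gene.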

How the results depend on the processing

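Of 1104 values of a member in a comparison under an alternative, 1034 kept their direction and their side of the threshold, 31 lost the call, 14 gained one and 25 changed sign. Those 25 belong to 8 results, none of which was called as reported, and 50 of the 56 calls stood under every alternative run. With array weights the change was -0.0323 for Bmp2 and 0.0068 for Id2 (adult Stra8 minus adult 129SV), -0.0022 for Id3 (adult minus ES 129SV) and 0.25 for Grem1 (differentiated adult minus differentiated ES, called at adjusted p = 0.0242). With arrays centred it was 0.0061 for Id2 (adult Stra8 minus adult 129SV) and 0.0174 for Smad6 (adult minus ES 129SV). With quantile normalisation it was 0.0163 for Smad6 (adult minus ES 129SV), and for Smad7 -0.0587 (differentiated adult minus differentiated ES), 0.0029 (adult minus ES Stra8) and -0.0394 (adult Stra8 minus adult 129SV). Leaving out 1 array gave -0.14 to 0.15 for Bmp2, -0.0741 to 0.0940 for Id2 and -0.0043 to 0.0633 for Smad7 (adult Stra8 minus adult 129SV). It gave -0.0426 to 0.10 for Id3 and -0.0547 to 0.0467 for Smad6 (adult minus ES 129SV), -0.24 to 0.10 for Grem1 and -0.0113 to 0.0769 for Smad7 (differentiated adult minus differentiated ES), and -0.0607 to 0.0069 for Smad7 (adult minus ES Stra8). The count of all genes called moved by over 1.5 times in 2 cases, to 8690 with array weights (adult minus ES Stra8, 5638 as reported) and to 3537 in a fit to the compared groups alone (differentiated adult minus differentiated ES, 6419 as reported). The causes were not tested.

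Of 45 pairs of arrays with the same replicate number, 10 had deviations correlated with r over 0.1, with a median of 0.0287, and 10 of 18 arrays correlated best with their own number. Between the differentiated adult and differentiated ES groups all 3 pairs had r over 0.1. The block was a replicate effect shared by all 6 groups, fitted to all 18 arrays. It is therefore not a paired fit of these differentiated groups, which was not run. In that comparison the block changed no call of a member (6 of 8 either way). It gave 6436 calls over all genes, against 6419 as reported. With the replicate number as a block, 6 members were called in adult against ES 129SV cells (5 as reported), 3 in adult against ES Stra8 cells (4 as reported) and 7 in the difference of origin effects (6 as reported), and the other counts of members were unchanged. Bmp4 gained both extra calls (adjusted p = 0.0225 and 0.0390) and Id2 lost its own (0.0576). Over all genes the block gave 11045 calls for ES differentiation, against 11005 as reported. Without background levels, what dim signal limits is not known.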
